A study of Rattus norvegicus with 6 samples.

Results

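The genes of oxidative phosphorylation, encoded in the nucleus and on the mitochondrial genome, were examined in RNA sequencing libraries of primary vascular smooth muscle cells of the rat, which contract the walls of vessels. Members were the protein-coding genes that lie on the mitochondrial chromosome or whose symbols name subunits of respiratory complexes I to IV, ATP synthase (complex V), cytochrome c or, through the Nduf names, complex I assembly factors. The rule took 106 of the 30945 genes listed, of which 93 were nuclear and 13 mitochondrial. The labels give 3 libraries as negative control and 3 as siRNA_ANK, all from cells of the same stated type, and state no age, sex, strain, dose or time. Nothing in them ties replicates to different animals or dishes, so p-values here reflect only the spread among these samples and may be technical. Bulk RNA was measured, so that fewer cells of a type and less RNA per cell cannot be told apart.

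Oxidative phosphorylation passes electrons from NADH and succinate through complexes I and II, ubiquinone, complex III and cytochrome c to complex IV, where oxygen is reduced, and the proton gradient built on the way drives ATP synthase. Complexes I, III, IV and V combine subunits made in the cytosol from nuclear genes with subunits made inside the organelle from mitochondrial DNA, whereas complex II is wholly nuclear. Smooth muscle cells use this pathway beside glycolysis, and some subunits have alternative isoforms in heart and skeletal muscle.

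Libraries held 15641259 to 17441548 counts, and 13016 genes were tested. The targeted gene Ankh, whose product is the membrane protein ANK, measured 338, 351 and 367 CPM (counts per 1e6 counts, scaled to library size) in the control libraries and 84.9, 76.7 and 120 CPM with siRNA_ANK. It was 3.75-fold lower (log2 fold change -1.91 ± 0.16 SE, edgeR adjusted p = 0.00018), which is the check of the labels. Summed smooth muscle markers were 4336 to 5819 CPM in control libraries and 7843 to 9380 CPM with siRNA_ANK, with 9 of 10 higher. Summed fibroblast markers were 280 to 321 CPM against 432 to 479 CPM, with 6 of 8 higher and 1 lower. Over all genes tested, 19.9% were higher and 20.2% lower at an adjusted p under 0.05. Endothelial markers summed to 1.32 to 1.86 CPM against 1.14 to 2.53 CPM, with 4 of 8, and macrophage markers to 0.844 to 1.12 CPM against 0.570 to 1.20 CPM, with 6 of 8, at 0 in all libraries. The part of the muscle and fibroblast shifts in the results given here was not tested.

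Most oxidative phosphorylation genes differed little between the groups. Of 96 members that passed the filter on low counts, 18 (18.8%) were called at an adjusted p under 0.05, 7 higher and 11 lower in siRNA_ANK, whereas 40.1% of all genes tested were called (19.9% higher and 20.2% lower). Where the mean was 5 CPM or more, the shares were 17 of 89 members (19.1%) and 45.0% of all genes. The median size of the log2 fold change was 0.11 over the members and 0.23 over all genes tested. The 95% interval of the fold change lay within 1.5-fold in either direction for 85 members (88.5%) and for 58.1% of all genes. The median SE was 0.08 for the members and 0.10 for all genes. Groups did not overlap for 32 members (33.3%), 15 higher and 17 lower, against 51.1% of all genes (25.7% higher and 25.4% lower). Across 17 alternative settings the called share ran from 9.38%, without negative control replicate 1, to 26.0%, without negative control replicate 2 and siRNA_ANK replicate 3 together. The same range for all genes was 28.6% to 46.2%. The plot of fold changes by complex and genome shows the members along the zero line.

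**Figure D1:**
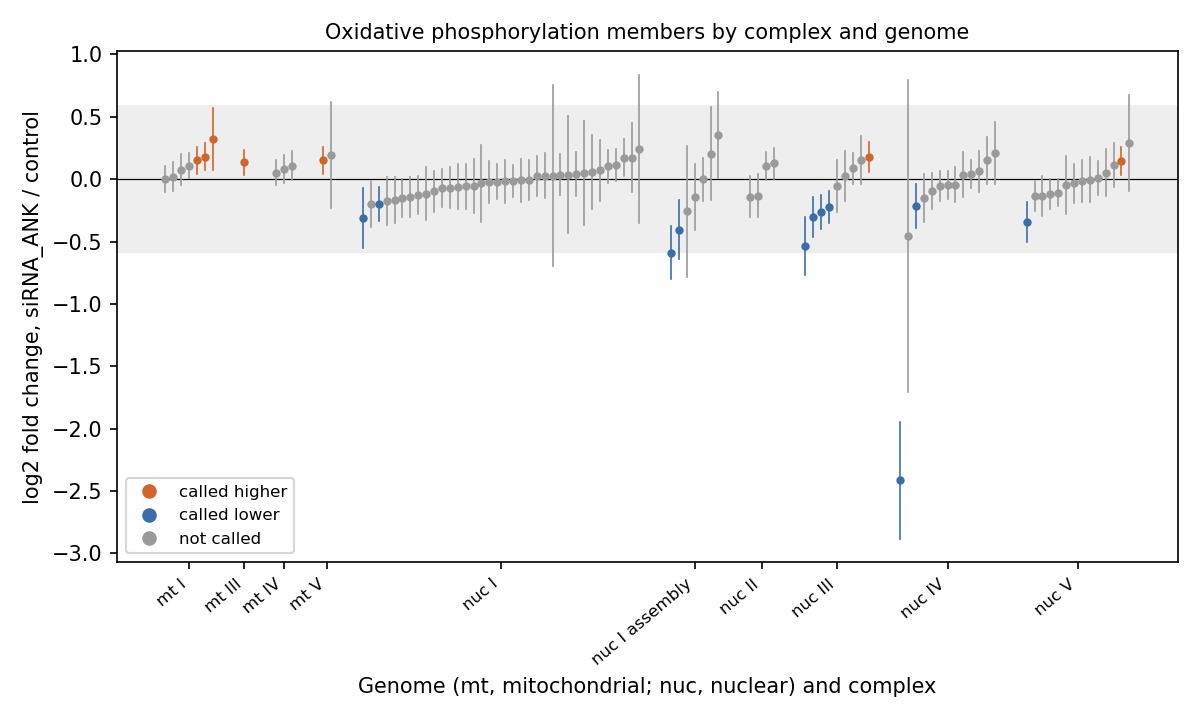
Log2 fold change of siRNA_ANK against negative control for each of the 96 tested members, grouped by genome and complex (nuc III includes cytochrome c). Points are fitted values, bars are 95% intervals and the grey band marks 1.5-fold in either direction. The single point far below the band is Cox6a2 at -2.41.

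Of the 13 mitochondrial genes 5 (38.5%) rose, each by a small amount, beside 40.1% of all genes called and 19.9% called higher. Their median log2 fold change was 0.11, beside 0.01 over all genes, and their fitted values ran from 0.00 to 0.32. Every fitted value was positive in this fit, but the lowest were not stable in sign. Mt-nd5 turned negative under DESeq2, DESeq2 size factors, scaling without the members and the mitochondrial genes, no filter, both length corrections and 3 of the 6 single-library omissions, and Mt-nd4l in 2 of these omissions. With edgeR, DESeq2 and limma-voom, 0 of the 13 fell, and 0 were lower at an unadjusted p under 0.05. The 83 nuclear members tested had a median of -0.03, with 2 higher and 11 lower. Mitochondrial protein-coding genes took 3.16%, 3.07% and 3.04% of all counts in the controls and 3.12%, 3.18% and 3.21% in siRNA_ANK, which overlap. Nuclear members took 0.489%, 0.475% and 0.468% against 0.437%, 0.440% and 0.463%. Those shares did not overlap, although the gap was small beside siRNA_ANK replicate 3. These are shares of raw counts, and on the scaled CPM used for single genes both readings turned. Summed mitochondrial members were 31007, 30390 and 29738 CPM in controls and 31854, 32490 and 32608 CPM in siRNA_ANK, without overlap. Summed nuclear members were 4798, 4697 and 4572 CPM against 4460, 4502 and 4692 CPM, which overlap. There were 6.46, 6.47 and 6.50 mitochondrial counts for each nuclear member count in the controls and 7.14, 7.22 and 6.95 in siRNA_ANK, without overlap.

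Complex I, which oxidises NADH, takes 7 of its subunits from the mitochondrial genome, and 3 of these rose. Mt-nd1 measured 1251, 1254 and 1179 CPM in control libraries and 1333, 1363 and 1395 CPM with siRNA_ANK (log2 fold change 0.15 ± 0.05, adjusted p = 0.0283). Mt-nd2 measured 1254, 1218 and 1200 CPM against 1403, 1348 and 1407 CPM (0.18 ± 0.05, adjusted p = 0.00982). Mt-nd3 measured 216, 219 and 164 CPM against 234, 245 and 271 CPM (0.32 ± 0.11, adjusted p = 0.0421). For these 3 genes every siRNA_ANK library lay above every control, and negative control replicate 3 was the lowest library, most clearly for Mt-nd3, whose log2 fold change was 0.20 (adjusted p = 0.052) without that library. Mt-nd4 had groups that did not overlap and missed the threshold, at 0.11 ± 0.05 (adjusted p = 0.0887). Mt-nd4l, Mt-nd5 and Mt-nd6 were at 0.02, 0.00 and 0.07, with adjusted p-values of 0.820, 0.990 and 0.342, and their groups overlapped. Mt-nd6 is the mitochondrial protein-coding gene of the opposite strand, and where its listed range overlaps that of Mt-nd5 the reads may not have been separated.

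Mt-cyb, the cytochrome b of complex III, measured 2777, 2724 and 2668 CPM in control libraries and 2984, 3016 and 2976 CPM with siRNA_ANK (0.14 ± 0.05, adjusted p = 0.0334). Mt-atp6, a membrane subunit of ATP synthase, measured 2733, 2756 and 2737 CPM against 2954, 2988 and 3195 CPM (0.15 ± 0.05, adjusted p = 0.0259). The groups did not overlap for either gene. Mt-atp8, the neighbouring subunit whose listed range overlaps that of Mt-atp6, had 4.87 to 8.52 CPM over the libraries and was at 0.19 ± 0.20 (adjusted p = 0.468). The 3 catalytic subunits of complex IV did not pass the test: Mt-co1 was at 0.05 ± 0.05 (adjusted p = 0.388), Mt-co2 at 0.11 ± 0.05 (0.137) and Mt-co3 at 0.08 ± 0.05 (0.252). At an unadjusted p under 0.05, 0 of these 3 were called, and DESeq2 and limma-voom also called 0. Per kilobase, Mt-co1 had the highest count among mitochondrial members at 8116 CPM per kilobase in the controls, and Mt-atp8 the lowest at 31.1. Mt-atp8 spans 204 bases, and how reads in its overlap with Mt-atp6 were counted is not given in the sources used here. The median over the mitochondrial members was 1286 CPM per kilobase, against 32.3 for the nuclear members tested. Fewer mitochondrial genes were called with some single libraries left out. Of the 13, 0 were called without negative control replicate 3 and 2 without negative control replicate 1. Without siRNA_ANK replicate 1 or 2, 1 was called each time. The share of all genes called was 31.8%, 30.6%, 31.7% and 33.2% in these omissions, in that order, against 40.1% with all libraries. Where such omissions cost the call, the log2 fold change was 0.12 to 0.15 for Mt-cyb and 0.15 to 0.17 for Mt-atp6. That of Mt-nd3 was 0.20 without negative control replicate 3, 0.34 without siRNA_ANK replicate 2 and 0.26 without siRNA_ANK replicate 3.

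The ribosomal RNAs of the same genome, which are no members, rose with larger fitted changes. Mt-rnr2, the large ribosomal RNA, measured 243, 251 and 247 CPM in control libraries and 336, 358 and 367 CPM with siRNA_ANK, 1.43-fold higher (0.52 ± 0.05, adjusted p = 3.74e-06). Mt-rnr1, the small ribosomal RNA, measured 129, 135 and 126 CPM against 177, 192 and 205 CPM, 1.47-fold higher (0.56 ± 0.06, adjusted p = 6.92e-06). The 95% intervals of both, 0.40 to 0.64 and 0.42 to 0.69, lay above the fitted value of every mitochondrial protein-coding gene. The intervals of Mt-nd3, 0.08 to 0.57, and of Mt-atp8, -0.23 to 0.62, overlap them. For every 100 mitochondrial protein-coding counts there were 1.20, 1.27 and 1.26 ribosomal RNA counts in the controls and 1.61, 1.69 and 1.76 in siRNA_ANK, without overlap. How ribosomal RNA was removed from the libraries is not given in the sources used here, and its part in these levels was not tested.

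**Figure D2:**
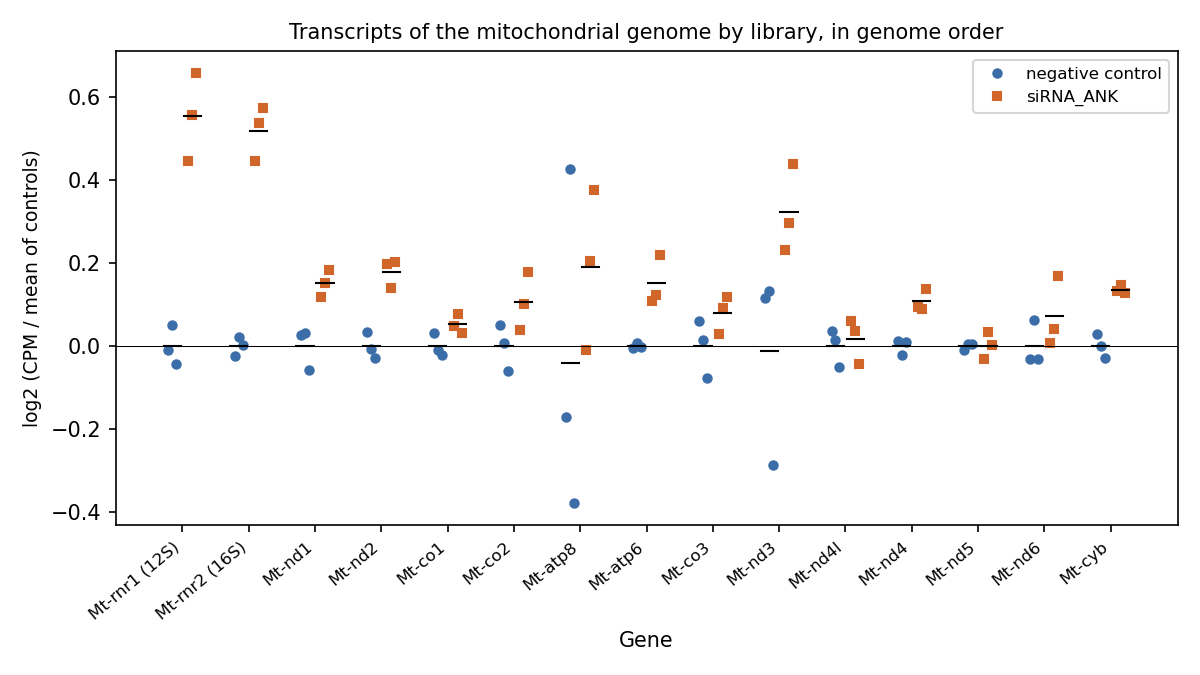
Log2 of each library's CPM over the control mean for the 2 ribosomal RNAs and 13 protein-coding genes of the mitochondrial genome, in genome order. Circles are negative control libraries, squares siRNA_ANK libraries and short lines group means; the ribosomal RNAs stand about 0.5 above the controls and Mt-nd5 sits at 0.

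Among the nuclear genes, those of complex III and cytochrome c held the largest share of calls, 5 of 9 tested, with 4 lower and 1 higher, beside 40.1% over all genes. Nuclear members of the other complexes, assembly factors aside, gave 6 calls among 67 (8.96%). These 67 include the called inhibitor Atp5if1 and further copies of some genes with low counts. Complex III passes electrons from ubiquinol to cytochrome c, the small soluble carrier that takes them to complex IV. Cycs, which encodes cytochrome c (chromosome 4, 79651378 to 79654054, minus strand, mRatBN7.2), measured 72.8, 65.4 and 66.3 CPM in control libraries and 43.7, 41.1 and 56.4 CPM with siRNA_ANK. It was 1.45-fold lower (-0.54 ± 0.11, adjusted p = 0.00201), every siRNA_ANK library lay below every control, and replicate 3 was the nearest to them.

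Cyc1, the cytochrome c1 that hands electrons to cytochrome c, measured 96.9, 89.4 and 95.8 CPM against 76.3, 74.3 and 84.6 CPM (-0.26 ± 0.06, adjusted p = 0.00489). Uqcrq, a small subunit of complex III, measured 100.2, 92.2 and 82.3 CPM against 70.3, 73.4 and 79.5 CPM (-0.30 ± 0.07, adjusted p = 0.00531). Uqcrc1, a core subunit named after its values were seen, measured 127, 120 and 119 CPM against 104, 99.2 and 111 CPM (-0.22 ± 0.06, adjusted p = 0.00755). In all 3 genes the groups did not overlap, and siRNA_ANK replicate 3 was again the siRNA_ANK library closest to the controls. Uqcrc1 lost its call without negative control replicate 1 (adjusted p = 0.0546). Uqcrfs1, the Rieske iron-sulfur subunit, went the other way, with 88.7, 93.1 and 91.3 CPM against 99.6, 103 and 106 CPM (0.18 ± 0.06, adjusted p = 0.0202). Its groups did not overlap, and the call was lost under DESeq2 and without negative control replicate 1 or 3. The other tested members did not pass the test: Uqcrc2, a core subunit, at 0.09 (adjusted p = 0.275), the Uqcrb gene on chromosome 7 at 0.15 (0.191), Uqcrh at -0.06 (0.679) and Uqcr10 at 0.02 (0.862). The groups of Uqcrc2 and of this Uqcrb gene did not overlap and were higher in siRNA_ANK. Groups were apart and higher for 3 of the 9 genes and apart and lower for 4, beside 25.7% and 25.4% of all genes. The nuclear and mitochondrial parts of complex III thus held calls in both directions, with Mt-cyb and Uqcrfs1 higher and Cyc1, Uqcrq and Uqcrc1 lower.

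**Figure D3:**
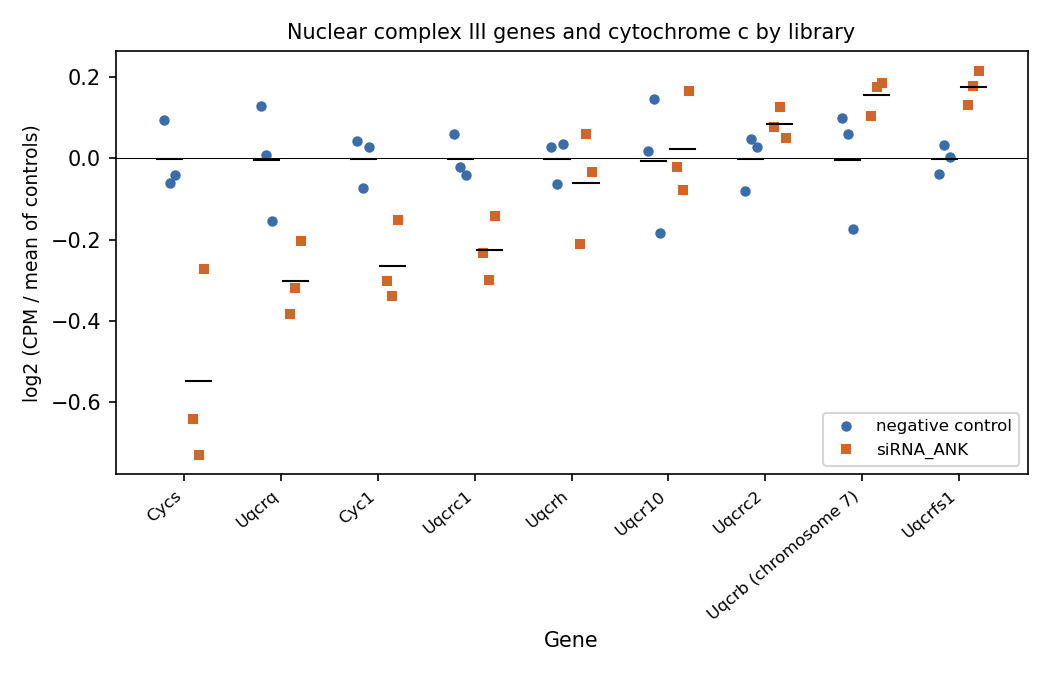
Log2 of each library's CPM over the control mean for the 9 tested nuclear genes of complex III and cytochrome c. Circles are negative control libraries, squares siRNA_ANK libraries and short lines group means; Cycs lies lowest and Uqcrfs1 highest among the siRNA_ANK means.

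The promoters of 4 of these genes are shown because many nuclear respiratory genes are known targets of nuclear respiratory factor 1 and of ETS family factors such as the GA-binding protein. The 250 bases before the annotated start were read from RefSeq, build GRCr8, for 75 of the 88 nuclear member symbols, Cyc1 not among them. They are given 5′ to 3′ on the gene's strand, with capitals marking matches to the core letters GCANGCGC (nuclear respiratory factor 1) or CCGGAAG (ETS) on either strand. The Cycs window is chr4:80984768-80985017 on the minus strand, that of Uqcrc1 is chr8:118467973-118468222 on the plus strand, that of Uqcrq is chr10:38089979-38090228 on the minus strand, and that of Uqcrfs1, the gene that rose, is chr17:34186352-34186601 on the plus strand.
Cycs: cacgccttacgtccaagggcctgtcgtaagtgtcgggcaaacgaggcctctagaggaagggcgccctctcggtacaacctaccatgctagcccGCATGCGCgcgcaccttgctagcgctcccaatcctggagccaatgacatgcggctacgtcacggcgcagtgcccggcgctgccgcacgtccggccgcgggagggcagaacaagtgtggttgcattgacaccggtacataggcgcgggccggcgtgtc
Uqcrc1: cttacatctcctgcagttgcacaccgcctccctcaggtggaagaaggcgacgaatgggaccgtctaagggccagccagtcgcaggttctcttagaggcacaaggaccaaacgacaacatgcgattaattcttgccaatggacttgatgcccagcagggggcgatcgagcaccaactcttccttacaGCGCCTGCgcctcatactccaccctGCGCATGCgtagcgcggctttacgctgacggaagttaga
Uqcrq: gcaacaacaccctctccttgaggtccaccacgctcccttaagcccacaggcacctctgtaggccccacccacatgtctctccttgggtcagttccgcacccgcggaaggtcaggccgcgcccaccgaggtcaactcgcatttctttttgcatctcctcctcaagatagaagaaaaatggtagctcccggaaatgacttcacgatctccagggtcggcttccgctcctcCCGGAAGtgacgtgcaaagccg
Uqcrfs1: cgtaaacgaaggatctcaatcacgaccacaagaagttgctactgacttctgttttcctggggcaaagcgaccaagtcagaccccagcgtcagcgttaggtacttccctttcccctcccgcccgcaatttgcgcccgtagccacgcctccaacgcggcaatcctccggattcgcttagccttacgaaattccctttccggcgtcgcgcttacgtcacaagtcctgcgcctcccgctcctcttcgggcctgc
Cycs had a match to the nuclear respiratory factor 1 core that starts at base -157 from the start site, Uqcrc1 had matches at -64 and -39, and Uqcrq had an ETS match at -22. Uqcrfs1 held neither set of letters in this window. The nuclear respiratory factor 1 core was found in 21 of 75 member promoters (28.0%) and in 7.85% of all 33469 promoters. The ETS core was found in 19 (25.3%) and in 7.27%, and either was found in 35 (46.7%) and in 14.1%. Of 19 tested members with the nuclear respiratory factor 1 core, 2 were called, both lower in siRNA_ANK, and of 50 tested members without it 8 were lower and 2 higher. Of 18 with the ETS core 2 were lower and 1 higher, and of 51 without it 8 were lower and 1 higher. These matches are a description of letters in the windows, and binding was not measured.

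Complex I had 36 tested nuclear members besides assembly factors, further copies of some genes included. Of these, 2 were lower and 0 higher, beside 20.2% of all genes called lower and 19.9% called higher. The median log2 fold change of the 36 was -0.02 and their range -0.31 to 0.24. At an unadjusted p under 0.05, 1 was higher and 3 were lower, against 3140 and 3084 of all 13016 genes. DESeq2 and limma-voom each called 0 of the 36 higher and 1 lower. The 95% interval stayed within 1.5-fold for 34 of the 36. Ndufb4, an accessory subunit, measured 24.4, 19.0 and 19.4 CPM against 18.5, 15.4 and 16.7 CPM (-0.31 ± 0.11, adjusted p = 0.0407). Ndufb8, an accessory subunit and the most abundant one per kilobase at 76.7 CPM per kilobase in the controls, measured 60.5, 60.2 and 54.9 CPM against 51.6, 51.4 and 50.1 CPM (-0.20 ± 0.06, adjusted p = 0.0244). Both had groups that did not overlap, narrowly so for Ndufb4. Ndufb4 lost its call under DESeq2, limma-voom, upper quartile scaling and a filter at 5 CPM, and without siRNA_ANK replicate 2 or negative control replicate 1, which moved its log2 fold change to -0.19. Ndufb8 lost its call when negative control replicate 1 or 2, or replicate 1 of siRNA_ANK, was left out.

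Of 7 complex I assembly factors named Ndufaf, 2 were lower. Ndufaf3, which acts early in assembly, measured 33.4, 30.3 and 34.4 CPM in control libraries and 20.9, 19.2 and 25.1 CPM with siRNA_ANK, 1.5-fold lower (-0.59 ± 0.10, adjusted p = 0.000271). Ndufaf7, a methyltransferase that acts in complex I assembly, measured 15.6, 13.7 and 14.6 CPM against 11.5, 10.003 and 11.6 CPM (-0.41 ± 0.11, adjusted p = 0.00879). In both genes all siRNA_ANK libraries lay below all controls. Ndufaf7 shares its listed range with Prkd3 on the opposite strand, and it missed the threshold without negative control replicate 1 (adjusted p = 0.0502). The 30 tested assembly factors outside the rule gave 3 higher and 1 lower, beside 19.9% of all genes called higher and 20.2% lower. Tmem70, an ATP synthase assembly factor, was at 0.41 ± 0.11 (adjusted p = 0.0106), Foxred1, for complex I, at 0.33 ± 0.10 (0.0146) and Cox18, for complex IV, at -0.33 ± 0.10 (0.0179).

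Complex II, succinate dehydrogenase, had no called gene among its 4 with edgeR, DESeq2 or limma-voom, and 1 was higher at an unadjusted p under 0.05. Among all genes, 40.1% were called with edgeR. Sdha, the flavoprotein subunit, measured 86.5, 85.9 and 87.0 CPM against 92.6, 91.5 and 94.9 CPM (0.10 ± 0.05, adjusted p = 0.139). Sdhc, a membrane anchor, measured 83.4, 81.6 and 77.0 CPM against 88.5, 87.0 and 88.8 CPM (0.13 ± 0.06, adjusted p = 0.0923). Their groups did not overlap, but the differences did not pass the test. Groups were apart and higher in siRNA_ANK for 25.7% of all genes. The 95% interval lay within 1.5-fold for all 4 genes.

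Complex IV, cytochrome c oxidase, held Cox6a2, the 1 called member that changed by more than 2-fold. Cox6a2 encodes the heart and skeletal muscle isoform of subunit 6A, and had 127, 126 and 120 counts in the controls and 24, 15 and 28 counts in siRNA_ANK. These are 7.14, 7.26 and 7.50 CPM against 1.44, 0.898 and 1.77 CPM, 5.33-fold lower (-2.41 ± 0.22, adjusted p = 9.91e-07). The controls lay close together and far above every siRNA_ANK library, and the call held in all 16 alternatives that tested it. Cox6a1, the widely expressed isoform, measured 145, 144 and 133 CPM against 133, 133 and 140 CPM, with a log2 fold change of -0.06 and a 95% interval of -0.18 to 0.07 (adjusted p = 0.466). Per kilobase, the control level was 220 CPM per kilobase for Cox6a1 and 15.4 for Cox6a2. Cox6a2 thus fell from a low level beside an abundant isoform whose groups overlapped. Its fall stood beside the rise of 9 of 10 smooth muscle markers given above, and the relation was not tested. The promoter window of Cox6a2 in GRCr8, chr1:192219717-192219966 on the minus strand, is shown because of the size of this change; it holds neither core.
Cox6a2: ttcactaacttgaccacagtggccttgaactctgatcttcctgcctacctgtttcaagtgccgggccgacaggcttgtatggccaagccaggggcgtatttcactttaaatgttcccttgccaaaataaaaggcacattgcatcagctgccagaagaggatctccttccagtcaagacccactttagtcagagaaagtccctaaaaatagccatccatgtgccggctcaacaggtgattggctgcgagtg

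**Figure D4:**
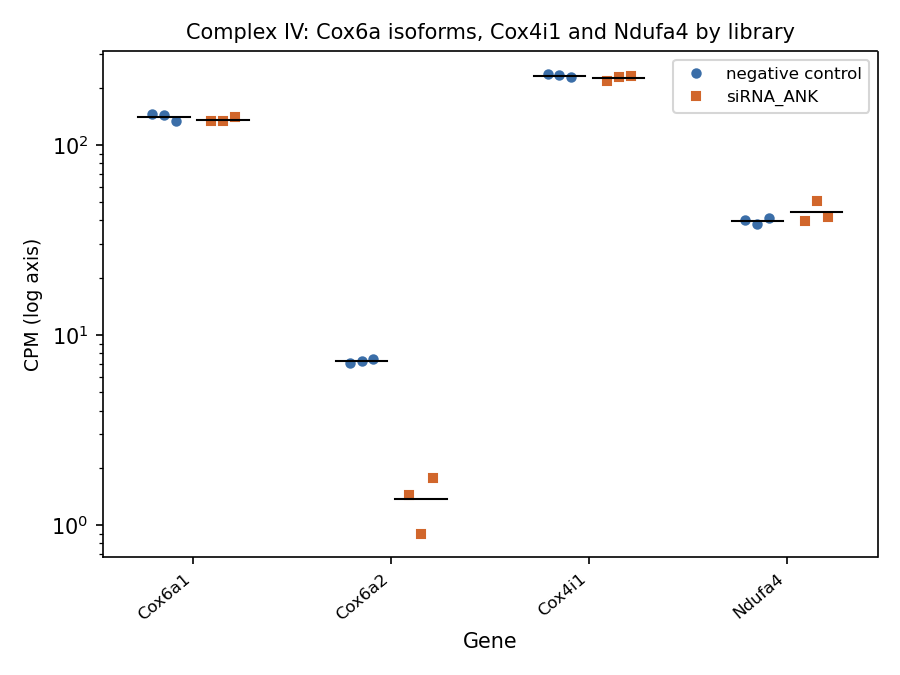
CPM by library on a log axis for Cox6a1, Cox6a2, Cox4i1 and Ndufa4 of complex IV. Circles are negative control libraries, squares siRNA_ANK libraries and short lines group means; Cox6a2 drops from about 7.3 to 1.37 CPM while the groups of the other 3 overlap.

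Of the 13 nuclear complex IV genes tested, 2 were lower and 0 higher, beside 20.2% of all genes called lower and 19.9% called higher. The median over the 13 was -0.05. At an unadjusted p under 0.05 the counts were the same, and DESeq2 and limma-voom each called 1 lower and 0 higher. The second called gene was Cox5b, a subunit of the matrix side, with 51.5, 46.4 and 41.6 CPM against 39.6, 41.6 and 38.9 CPM (-0.22 ± 0.08, adjusted p = 0.0458). Its groups overlapped, and the call was lost in 10 of 17 alternatives, with a log2 fold change of -0.14 without negative control replicate 1. Cox4i1, the common isoform of subunit 4, measured 235, 232 and 228 CPM against 216, 226 and 231 CPM (-0.05 ± 0.05, adjusted p = 0.519). Cox4i2, the isoform of lung and of oxygen-sensing cells, fell below the filter, with 2, 5 and 1 counts against 7, 8 and 11. Its groups did not overlap, and with no filter beyond 1 count it was at 1.71 ± 0.73 (adjusted p = 0.0659). Ndufa4, a subunit counted here with complex IV, was at 0.15 ± 0.09 (adjusted p = 0.197), and its low isoform Ndufa4l2, with 10, 3 and 4 counts against 5, 5 and 12, also fell below the filter; its groups overlapped, and with no filter it was at 0.43 ± 0.64 (adjusted p = 0.664). Cox7a1, the muscle isoform of subunit 7A, was below 0.8 CPM in each library and was at -0.46 ± 0.58 (adjusted p = 0.571), so that a change in it was not detectable at this depth. The sign of that value turned without siRNA_ANK replicate 3.

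Complex V, ATP synthase, had 1 higher and 1 lower gene of 14 nuclear members tested, with a median of -0.02. Among all genes, 19.9% were called higher and 20.2% lower, and groups did not overlap for 51.1%. Atp5f1a, the alpha subunit of the catalytic head, measured 292, 308 and 294 CPM against 333, 323 and 334 CPM (0.15 ± 0.05, adjusted p = 0.0355). Atp5f1b, the catalytic beta subunit and the most abundant nuclear member at 363 CPM per kilobase in the controls, measured 659, 642 and 647 CPM against 598, 588 and 623 CPM (-0.11 ± 0.05, adjusted p = 0.107). The partner subunits thus had groups that did not overlap in opposite directions, with only the alpha subunit past the threshold; the difference between them was not tested. That call was lost under DESeq2, with no filter, with a gene length correction and when negative control replicate 1 or 3, or replicate 1 or 2 of siRNA_ANK, was left out. Atp5if1, the inhibitor that blocks ATP hydrolysis by the enzyme, measured 38.8, 37.3 and 34.7 CPM against 29.1, 28.8 and 29.5 CPM. It was 1.27-fold lower (-0.34 ± 0.07, adjusted p = 0.00188), with no overlap of the groups.

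Calls that held in every alternative tested, with each library left out included, numbered 6 of 18, all lower: Cycs, Cyc1, Uqcrq, Ndufaf3, Cox6a2 and Atp5if1. None of the 7 calls in the higher direction did so. Their log2 fold changes ran from 0.14 to 0.32, against -0.26 to -2.41 for the 6 that held. Over all genes, calls also fell, from 5223 to 4053 without negative control replicate 1. How many calls over all genes held in every alternative was not counted.

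Genes that regulate or serve the pathway moved in both directions. So did all genes tested, of which 19.9% were called higher and 20.2% lower. Of 13 tested regulators of mitochondrial biogenesis 2 were higher and 2 lower. Nrf1, which encodes nuclear respiratory factor 1, measured 34.1, 37.9 and 35.4 CPM against 26.6, 27.0 and 27.0 CPM (-0.41 ± 0.07, adjusted p = 0.000485), without overlap. Esrra, the estrogen-related receptor alpha, named after its values were seen, was at -0.56 ± 0.15 (adjusted p = 0.00991). Myc, a growth regulator, was at 0.29 ± 0.05 (adjusted p = 0.00056) and Prkaa1, a catalytic subunit of AMP-activated kinase, at 0.34 ± 0.08 (0.00217). Of 16 genes of mitochondrial DNA maintenance and transcription 3 were higher and 2 lower. Ssbp1, the single-stranded DNA binding protein, was at 0.47 ± 0.12 (adjusted p = 0.0045) and Tefm, the elongation factor of mitochondrial transcription, at 0.46 ± 0.13 (0.0113). Mterf2, of the termination factor family, was at -0.95 ± 0.24 (0.00582). The transcription factor Tfam was at 0.04 (adjusted p = 0.751) and the polymerase Polrmt at 0.14 (0.407), both with overlapping groups. Of 19 genes of mitochondrial RNA processing 4 were higher and 2 lower, among them Supv3l1, a helicase of mitochondrial RNA decay, at 0.41 ± 0.09, and Fastkd2, needed for the mitochondrial ribosome, at -0.48 ± 0.11.

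Of 17 genes of pyruvate dehydrogenase and the tricarboxylic acid cycle, which feed the chain, 8 were called, all of them lower, beside 40.1% of all genes called and 20.2% called lower, and the median log2 fold change was -0.11. Citrate synthase, Cs, measured 218, 210 and 220 CPM against 175, 177 and 175 CPM (-0.29 ± 0.05, adjusted p = 0.00038), a wide gap beside the spread within groups. Suclg1, a subunit of succinyl-CoA ligase, was at -0.42 ± 0.08 (adjusted p = 0.00124) and Dlst, of the oxoglutarate dehydrogenase complex, at -0.22 ± 0.05 (0.0033). Of 13 genes of ubiquinone synthesis 3 were higher and 1 lower. The paralogs Coq8a and Coq8b, both regulators of that synthesis, went opposite ways. Coq8a was 2.63-fold higher from a low level, with 1.13, 1.5 and 1.06 CPM against 2.52, 3.83 and 3.36 CPM (1.39 ± 0.27, adjusted p = 0.000842). Coq8b measured 41.9, 38.1 and 41.9 CPM against 26.1, 27.6 and 32.9 CPM (-0.49 ± 0.09, adjusted p = 0.000505).

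Carriers of the inner membrane held calls in both directions, beside 19.9% of all genes called higher and 20.2% called lower. Slc25a4, the heart and muscle form of the ADP/ATP exchanger, measured 242, 250 and 242 CPM against 311, 317 and 310 CPM (0.36 ± 0.05, adjusted p = 6.58e-05), without overlap. Of the 6 carriers and uncoupling proteins tested 2 were higher and 2 lower, with Ucp2, an uncoupling protein homologue, at 0.49 ± 0.11 and Slc25a24, an ATP-magnesium and phosphate carrier, at -0.32 ± 0.07. Of 13 mitochondrial chaperones and proteases 2 were higher and 3 lower. Lonp1, the matrix protease, measured 364, 355 and 375 CPM against 250.5, 225 and 268 CPM (-0.56 ± 0.06, adjusted p = 9.47e-06). Afg3l2, an inner membrane protease, was at -0.38 ± 0.06 (adjusted p = 0.000243) and Htra2, an intermembrane space protease, at 0.54 ± 0.09 (0.000216).

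The filter on low counts left out 10 members, such as Cox4i2, Ndufa4l2, Cox7b2, Cox8c and further copies of Ndufb2, Uqcrb and Atp5mk, and 4 of the 10 had no count in any library. In all, 5 member symbols stood on more than 1 entry, and reads of near-identical copies can be shared. Further, 39 members overlap another listed gene, among them the called Mt-atp6 and Ndufaf7. The Ndufa7 and chromosome 4 Ndufb2 entries carry descriptions of other genes in the files; neither was among the called members.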

How the data were processed

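Total RNA of 6 libraries (3 negative control, 3 siRNA_ANK) was sequenced, and the authors deposited whole-number counts per gene, not normalized. The submitters' processing notes name build mRatBN7.2, DESeq2 and featureCounts 1.5.0-p3; which aligner, strand setting and read filters were used is not given in the sources used here. If counting ignored strand, overlapping and antisense genes share reads that cannot be separated. The 385 unnamed loci (0.306% to 0.339% of counts) stayed in the tests.

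Counts were analysed with edgeR 4.0.16 (R 4.3.3): filterByExpr with a minimum count of 10 and minimum total of 15, TMM scaling, and a two-sided quasi-likelihood test (robust, no covariate), with Benjamini-Hochberg adjustment over all 13016 genes tested. CPM are on the TMM scale, and errors beside log2 fold changes are SE. Steps were tested on simulated data. No 2 replicates agreed within sampling noise (chi-square per degree of freedom 2.83 to 12.3). An exact permutation test of 3 against 3 cannot go below 0.1 and was not used.

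Members and lists were chosen with earlier results of these data known. Named genes were all mitochondrial members; per nuclear set up to 3 called members each way by largest change with a mean of at least 5 CPM and the most abundant per length (with no call, the 2 smallest adjusted p-values); isoform pairs; and up to 3 called genes per list. Uqcrc1, Uqcrc2, Uqcrh, Uqcr10, Uqcrb, Esrra, Tfam and Polrmt, and members named only as left out of the test or as oddly described, fell outside this rule and were named after their values were seen. Alternatives were DESeq2 1.42.0, limma-voom (limma 3.58.1), other scalings and filters, a replicate block, a gene length correction and leaving out libraries.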

Additional observations from a re-analysis of the deposited data

How the results depend on the processing

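The depth of 15641259 to 17441548 counts sets a count at 0.0573 to 0.0639 CPM, so a change in Cox7a1, with the interval its test gave, was not detectable at this depth. The labels give the groups the same replicate numbers but do not say whether these pair the samples. Correlations of deviations between same-numbered libraries were -0.03, 0.06 and 0.04. Between differently numbered libraries they ran from -0.09 to 0.05. Values this small and this alike cannot decide whether samples were paired. With the replicate number as a block 5210 genes and 17 members were called, against 5223 and 18; the call of Mt-nd3 was the one lost. Of the settings of the named members and other named genes, 912 kept direction and side of the threshold, 68 fell short of it, 6 newly passed and 13 changed sign; the cause was not tested. The nuclear members higher, 2 by edgeR, were 0 with DESeq2, 1 with no filter, 1 with the gene length correction and 1 with the replicate block and that correction together, and 0 to 3 with each library left out. Nuclear members lower were 11, and 6 to 15 with each library left out (6 without negative control replicate 1). Mitochondrial members higher were 5, with 3 under no filter and 0 to 4 with each library left out. Dropping both negative control replicate 2 and replicate 3 of siRNA_ANK, an alternative chosen after seeing the data, gave 4 nuclear members higher and 17 lower. The Mt-nd5 log2 fold change, at 0.00, turned to -0.00456 under DESeq2 and under DESeq2 size factors, -0.00102 under scaling without members, -0.00364 with no filter, -0.0333 with the length correction, -0.0337 with the replicate block and length correction, and ran from -0.0174 to 0.0157 with each library left out. With each library left out, the Mt-nd4l log2 fold change ran from -0.0082 (without negative control replicate 3) to 0.0466. The Cox7a1 log2 fold change, at -0.46, ran from -1.23 to 0.0275 (without siRNA_ANK replicate 3), and was 0.244 without that library and negative control replicate 2.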

Other observations

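Some genes described in the files as subunits of the same complexes fell outside the symbol rule; they were chosen after their values were seen. An entry without a symbol on chromosome 3, described as the epsilon subunit of ATP synthase, measured 40.7, 38.1 and 31.8 CPM in control libraries and 43.7, 44.8 and 47.1 CPM with siRNA_ANK (log2 fold change 0.29 ± 0.09, edgeR adjusted p = 0.0146), without overlap of the groups. An entry without a symbol on chromosome 6, described as the ATP5MJ subunit, was at 0.31 ± 0.15 (adjusted p = 0.131). The entry under the symbol Taf3 on chromosome 17 is described as the gamma subunit of ATP synthase and was at 0.12 ± 0.06 (adjusted p = 0.121). An unannotated locus on chromosome 1 described as subunit 8A of complex IV was at -0.06 ± 0.07 (adjusted p = 0.482).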
